A study of Mus musculus with 15 samples.

Results

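Collagens, laminin chains, integrins and the proteases of the ADAM, ADAMTS and MMP families, with their TIMP inhibitors, were followed in mouse skeletal muscle stem cells while the muscle around them was taken apart. These stem cells, also called satellite cells, lie between the muscle fibre and its basement membrane and divide after injury. Members were chosen by gene symbol alone, and 59 of the 8059 genes listed in the deposited table matched. Among these, Col4a3bp matches by its name only, since it encodes a ceramide transfer protein. The other 58 genes are 21 collagen, 8 laminin, 7 integrin, 7 ADAM, 10 ADAMTS, 3 MMP and 2 TIMP genes.

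The study followed the response of muscle stem cells to tissue dissociation. Bulk RNA was sequenced at T0, labelled as intact muscle, and at T15, T30, T60, T90 and T120, labelled as dissociated muscle. All 6 groups carry the label fixed. PFA was the fixative per the labels' protocols, and muscle was dissociated with collagenase and dispase, microbial enzymes that cut collagens and other matrix proteins. The time numbers carry no unit in the labels and were read as minutes. T0, T15, T60 and T120 have 4 libraries each, named A to D in the table, and T30 and T90 have 3 each, named A to C. Whether the letters stand for separate animals is not stated, so the p-values measure the spread between libraries, which may be technical. The sources used here do not give strain, genotype, sex, age or the sort of the bulk cells. Of the 15 labelled samples, 9 are of single nuclei or single cells and were not analysed here.

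As background, laminins and collagen IV form the sheet-like basement membrane against which satellite cells rest, and fibrillar collagens form the fibres outside it. Integrins are pairs of an alpha and a beta chain that hold a cell to this matrix and signal to its interior, and the pair of Itga7 and Itgb1 is the classical laminin receptor of muscle. ADAM proteases release the outer part of membrane proteins, ADAMTS proteases are secreted and cut proteoglycans or trim procollagens, MMPs cut matrix and surface proteins, and TIMPs block these enzymes. Quiescent satellite cells make part of their own niche, including collagen V and laminin chains.

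Summed over the listed genes, the late libraries (T60, T90 and T120) held between 8647622 and 27826437 counts, and the early libraries (T0, T15 and T30) between 2974294 and 10482407. All 10 satellite cell markers looked for were listed, with summed levels of 6721 to 8144 CPM (counts scaled to equal library totals) at T120, against 4006 to 4832 CPM at T0. At T120 over T0, 4 of these 10 rose and 4 fell, so the sum alone does not give the share of satellite cells. Sdc4 had 2190 to 2986 CPM at T120 and 352 to 472 CPM at T0, whereas Pax7 had 311 to 478 and 1067 to 1523 CPM. Of 12 immune markers only Cd68 was listed, and of 8 tenocyte markers 0 were. The table also held 6 of 12 endothelial, 8 of 10 smooth muscle or pericyte, 8 of 12 myofibre, 4 of 12 fibroblast and 3 of 10 glial markers. Long genes of other tissues had more counts in the early libraries, which was taken as a background that scales with length. It was measured on Muc16, Mroh2a, Pclo, Csmd1 and Dnah8, 5 genes of epithelia, neurons and cilia, as their CPM per kb of exon. These were the listed ones of a longer fixed list of such genes. The rest of that list was absent from the deposited table. The density therefore rests on genes with enough counts to be listed, and may be too high. This background density averaged 2.62 ± 1.15 at T0, 1.57 ± 1.501 at T15 and 4.73 ± 2.92 at T30 (SD). At the late time points it averaged 0.207 ± 0.05 (T60), 0.259 ± 0.111 (T90) and 0.482 ± 0.486 (T120). The members are longer than most genes, with a median exon length of 7648 bases against 5333 bases over all listed genes. Each member's share of background at T0 is therefore given with its values. In addition, 20 of the 59 matched genes share exon bases with another annotated gene. The kit marks strand, but the sources used here do not say whether counting used it.

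In intact muscle the highest members per length were matrix genes. Per kb of exon, Col3a1, a fibrillar collagen, stood at 126 ± 35.3 CPM at T0 (SD, n = 4), Lamc1, the laminin gamma1 chain, at 103 ± 23.6, Col4a1, a basement membrane collagen, at 97.9 ± 24.7 and Col6a1, a microfibril collagen, at 88.4 ± 16.7. Col3a1 was the highest member in each of the 4 T0 libraries. Lamc1 lay above Col4a1 in 2 of them and Col4a1 above Col6a1 in 3, so the order among these 3 changes from library to library. Itgb1, the shared beta chain of most integrins, followed at 80.4 ± 8.80 CPM per kb, the gelatinase gene Mmp2 at 68.8 ± 17.1, the proteoglycan collagen Col15a1 at 61.4 ± 17.6, Col5a1 at 53.1 ± 7.19, the laminin alpha2 gene Lama2 at 49.02 ± 9.15 and the inhibitor gene Timp2 at 47.9 ± 5.39. At the low end stood Col1a2 at 1.76 ± 0.751, Adam12 at 1.70 ± 0.519 and Col8a1 at 1.60 ± 0.781 CPM per kb. For these 3 genes the estimated background alone came to 150%, 154% and 172% of the T0 level. Background made up under 20% of the T0 level in 24 of the 58 members, 20 to 50% in 9, and at least 50% in 25, of which 9 were at 100% or more.

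From T60 on, a smaller share of these genes than of all genes was called, and the calls were divided between rises and falls. A call here is an adjusted p under 0.05 in edgeR's quasi-likelihood test with Benjamini-Hochberg adjustment over all 8059 genes, and every adjusted p below is from this test unless another is named. At T15 over T0, 0 of the 58 members were called by edgeR, beside 0.67% of all genes (0.658% up and 0.0124% down), and 1 had an unadjusted p under 0.05. DESeq2 called 1 up and 0 down, and the gene was Adamts1 in both cases. At T30, 3 members were called up and 0 down, which is 5.17% of members beside 5% of all genes, 3.66% up and 1.34% down (10 up and 2 down at an unadjusted p under 0.05; DESeq2 called 4 up and 0 down). At T60 there were 14 up and 9 down, 39.7% of members beside 56.2% of all genes (27.9% up and 28.3% down). At T90 there were 15 up and 14 down, 50% beside 68.8% (33.8% up and 35% down). At T120 there were 17 up and 17 down, 58.6% beside 76.8%, where all genes divided into 37.3% up and 39.5% down. Leaving out single libraries moved 4 of these counts by over 1.5 times. There was 1 rise at T15 without T0B, and there was 1 fall at T30 without T30C. The T30 rises numbered 1 without T0B, T0D or T30A and 6 without T30C, and the T90 falls 9 without T90C. The median log2 fold change of the members at T120 over T0 was -0.10, and that of all listed genes was -0.08. A joint test over all time points called 41 of 58 members, and 85.7% of all genes. Lama3 and Col19a1, called down at T120 over T0 below, were not called jointly (adjusted p = 0.13 and 0.0719). The comparisons with T0 share the T0 libraries. In bulk RNA, fewer cells of a type and less RNA per cell cannot be told apart, and this holds for all falls and rises below. The immune marker Cd68 was at 20.9 to 50.5 CPM at T30, against 9.44 to 11.9 CPM at T0, and its part in the T30 values was not tested.

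Between time points after T0, 12 members were called up and 16 down at T120 over T60, 48.3% beside 60.4% of all genes (28.4% up and 32% down), with 10 falls without T120D. In the single steps, 3 members rose and 1 fell at T30 over T15, beside 4.89% of all genes called (3.16% up and 1.72% down). At T60 over T30, 11 rose and 11 fell, beside 51% (26.5% up and 24.5% down). At T90 over T60, 7 rose and 2 fell, beside 30.3% (16.7% up and 13.6% down), and at T120 over T90, 6 rose and 7 fell, beside 22.9% (9.08% up and 13.9% down).

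**Figure D1:**
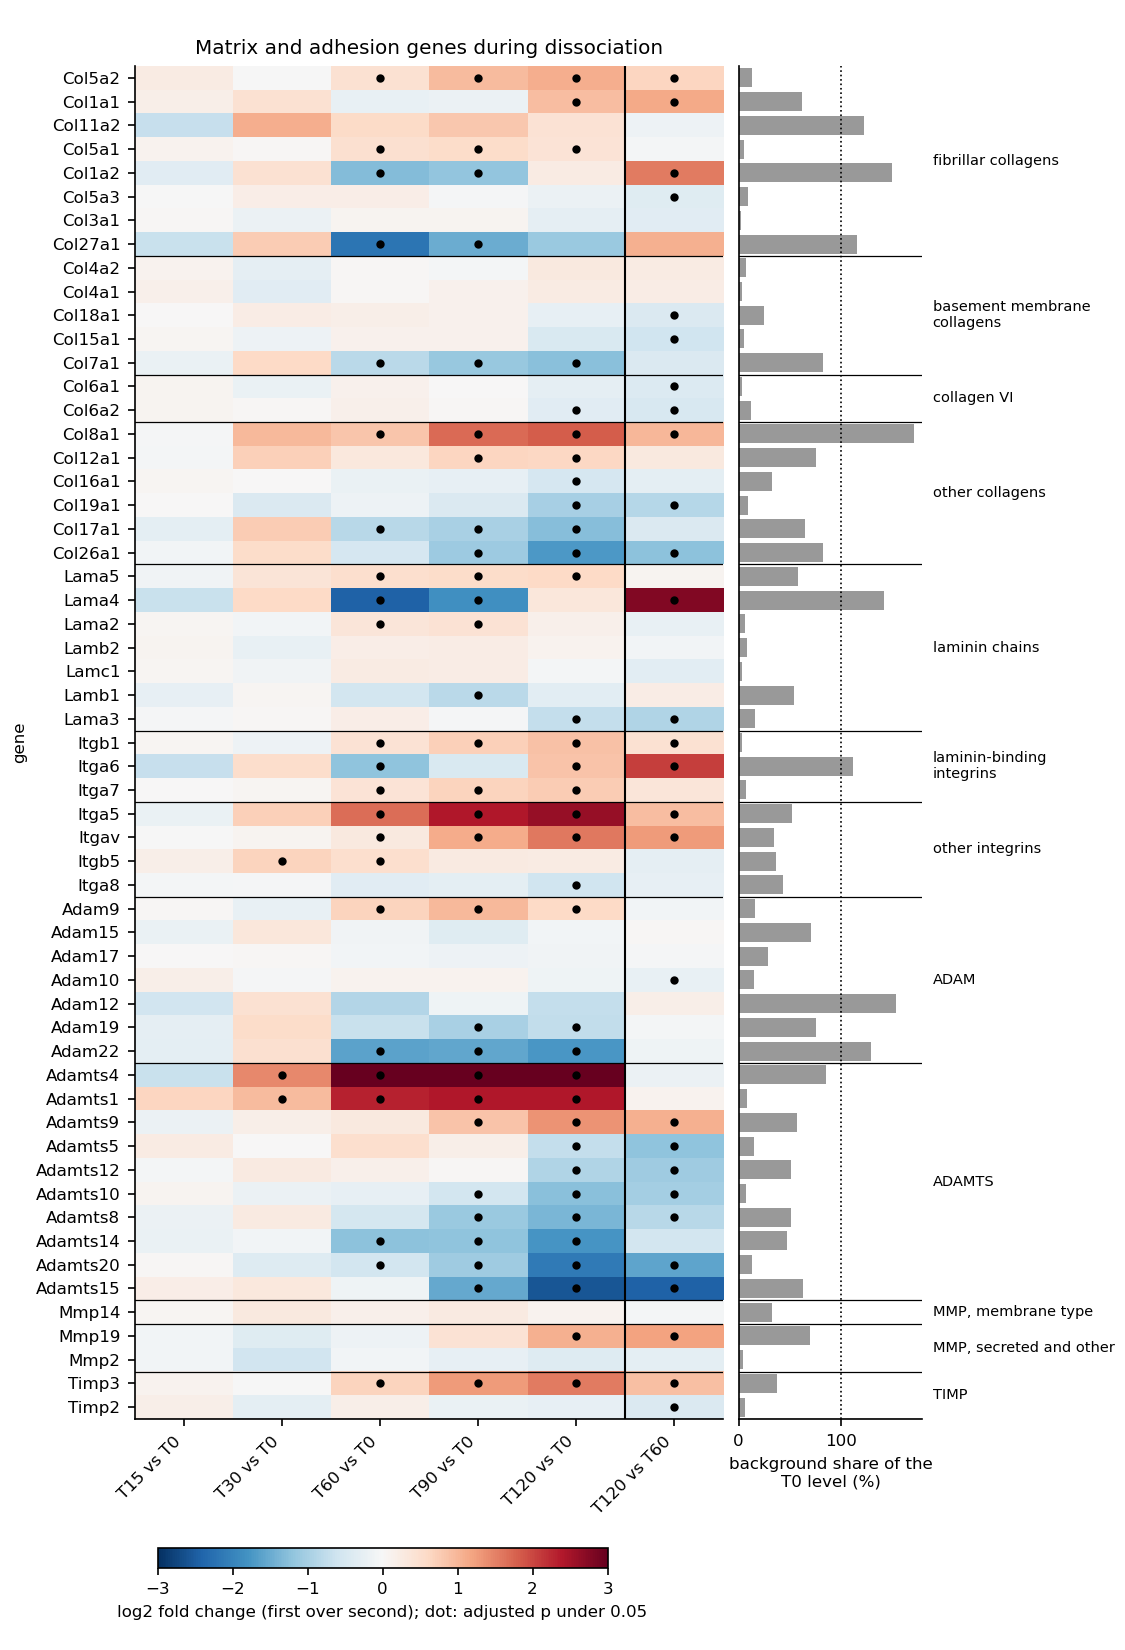
Log2 fold change of the members (rows, by family and role) in 6 comparisons (columns), red for higher and blue for lower in the first-named time point, with colours capped at 3 in either direction. A dot marks an adjusted p under 0.05, and the grey bars give the background share of the T0 level in percent, with a dotted line at 100%. Adamts1, Adamts4 and Itga5 are the strongest reds from T60 on, most ADAMTS genes turn blue by T120, and the genes that are blue at T60 but red in the T120 over T60 column have long bars.

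The upstream sequences of Adamts1, Itga5, Itgav and Itgb1 are shown because Itgb1 encodes the beta chain that pairs with Itga5 and Itgav, and Adamts1 had the lowest adjusted p of the members called at T30. These 4 genes were called up at T60, T90 and T120, as were other members, which include Adam9, Timp3 and Col5a1. RefSeq gives promoter windows on GRCm38.p6 for 39 members, and in 30 of them the start site lies within 100 bases of the GENCODE gene start. The 250 bases before the start site are printed 5′ to 3′ in the direction of the gene, and capitals mark a match to TEAD (GGAATG), AP-1 (TGANTCA) or the cAMP response element (TGACGTCA) on either strand. Windows are Adamts1 (chr16:85803114-85803363, minus strand), Itga5 (chr15:103366792-103367041, minus strand), Itgav (chr2:83724147-83724396, plus strand) and Itgb1 (chr8:128685404-128685653, plus strand).
Adamts1: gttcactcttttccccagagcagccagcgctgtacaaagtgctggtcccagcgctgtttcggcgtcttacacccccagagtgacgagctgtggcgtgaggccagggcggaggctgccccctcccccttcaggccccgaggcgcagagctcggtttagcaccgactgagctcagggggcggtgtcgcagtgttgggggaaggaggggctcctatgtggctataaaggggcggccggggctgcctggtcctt
Itga5: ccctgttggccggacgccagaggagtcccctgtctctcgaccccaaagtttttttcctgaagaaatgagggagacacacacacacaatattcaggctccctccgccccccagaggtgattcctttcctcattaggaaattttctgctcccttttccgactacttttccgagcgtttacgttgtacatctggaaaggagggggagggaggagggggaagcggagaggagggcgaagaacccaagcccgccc
Itgav: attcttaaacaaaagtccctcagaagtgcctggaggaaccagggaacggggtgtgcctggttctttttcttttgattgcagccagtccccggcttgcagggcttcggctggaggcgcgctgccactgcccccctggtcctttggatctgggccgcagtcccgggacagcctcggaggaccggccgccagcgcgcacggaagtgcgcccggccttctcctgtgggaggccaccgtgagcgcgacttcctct
Itgb1: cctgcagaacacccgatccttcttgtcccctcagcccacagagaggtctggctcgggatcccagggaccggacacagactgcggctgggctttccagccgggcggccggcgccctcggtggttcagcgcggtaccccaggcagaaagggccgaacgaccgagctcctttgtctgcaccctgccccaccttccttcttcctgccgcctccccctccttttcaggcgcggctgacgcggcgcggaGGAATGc
The Itgb1 window holds a TEAD match next to the start site, and the other 3 windows hold no match to these 3 motifs. Over the 30 member windows, AP-1 letters occurred in 1, that of Adam19, beside 6.75% of the same 250 bases of all 32851 RefSeq windows. The cAMP response element occurred in 0, beside 1.55%, and TEAD letters in 3 (Adam19, Col3a1 and Itgb1), beside 12.6%. E-box letters (CANNTG) occurred in 19 of 30, beside 66.2% of all windows, and NF-kB letters (GGG and CC with any 5 bases between) in 23, beside 45.8%. The member windows were limited to start sites within 100 bases of the GENCODE gene start. The windows of all genes were not, so the sets are unlike and the shares cannot show an enrichment. A match describes the letters only.

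Of the 21 collagens, 5 were called up and 6 down at T120 over T0, 52.4% in all, beside 76.8% of all genes (37.3% up and 39.5% down). Among the fibrillar collagens, Col5a1 and Col5a2, which encode the chains of collagen V, were called up from T60 on. Col5a1 had 433, 530.1, 384 and 457 CPM at T0, 579, 486, 452 and 411 at T15 and 391, 470.04 and 528 at T30. It then had 625, 642, 602 and 654 CPM at T60, 621, 729.5 and 642 at T90 and 644, 613, 594 and 562 at T120. All libraries from T60 on lay above all of T0, while those of T15 and T30 overlapped with T0. The log2 fold change was 0.48 ± 0.12 at T60 and 0.42 ± 0.12 at T120 (adjusted p = 0.00165 and 0.00313). Background was 5.20% of its T0 level, and after background subtraction its rises were called at none of T60, T90 and T120, with 0.13 at T120 (adjusted p = 0.341). Col5a2 averaged 467 ± 19.2 CPM at T120 and 217 ± 49.99 CPM at T0 (SD, n = 4 each), and rose by 1.10 ± 0.16 (adjusted p = 3.15e-06) on the log2 scale. It also rose within the late libraries, by 0.65 ± 0.16 (adjusted p = 0.00163) at T120 over T60, and its T120 rise was still called after background subtraction (0.94; adjusted p = 4.13e-06). Its T60 call (0.45 ± 0.16; adjusted p = 0.0213) was lost after subtraction (0.21), without T0A, T0C or T60B (adjusted p up to 0.087) and without the 5 libraries of highest background. The third listed collagen V chain, Col5a3, was not called against T0 (-0.17 ± 0.15 at T120; adjusted p = 0.309) and had -0.37 ± 0.15 at T120 over T60 (adjusted p = 0.0437). That late call was lost in 9 of the runs that left out 1 library (adjusted p up to 0.144), with RLE scaling of libraries, with a filter at 20 CPM, with DESeq2 and after subtraction. After subtraction Col5a3 was called down at T120 over T0 (-0.41; adjusted p = 0.0175).

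Col3a1, the most abundant member per length, was not called at any time with all libraries and no background subtraction. Its libraries had 1170.4, 1495, 778 and 1519 CPM at T0, 1417, 1579.5, 1029 and 1037 at T15 and 851, 1051 and 1369.9 at T30. They had 1299, 1395, 1412 and 1148 CPM at T60, 1114, 1538 and 1314 at T90 and 996, 1109, 1145 and 888 at T120. Values at all 6 time points overlapped with those of T0, and the log2 fold change at T120 was -0.26 ± 0.19 (adjusted p = 0.223). After background subtraction the T120 value was -0.56 and called (adjusted p = 0.00521), and the fall was also called without T0C and without the 5 libraries of highest background. Background was only 2.45% of the Col3a1 level at T0, and the subtracted fit scaled libraries anew. The collagen I genes, chains of the main fibre of tendon and scar, rose late. Col1a1 rose by 1.13 ± 0.27 (adjusted p = 0.00115) at T120 over T60 and by 0.92 ± 0.27 (adjusted p = 0.00456) over T0, and Col1a2 by 1.55 ± 0.42 (adjusted p = 0.00331) over T60. Neither rise over T60 was called after subtraction. Col1a2 at T60 was called down against T0 (-1.31 ± 0.43), a call lost without T0A (adjusted p = 0.0576), and background came to 150% of its T0 level. Col27a1, another fibrillar collagen, was also called down at T60 (-2.20 ± 0.61) with a background share of 116%. The 4 listed fibroblast markers summed to 1002 to 1150 CPM at T120, against 1279 to 1430 CPM at T60. Gsn made up most of that sum, with 744 to 860 CPM at T120 and 940 to 1008 CPM at T60. Dcn was up at T120 over T0 and Cd34 down, and at T120 over T60 Dcn had 0.76 ± 0.47 (adjusted p = 0.17). The part of fibroblasts in the collagen I values was not tested.

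Among the 5 basement membrane collagens 1 was called at T120 over T0 (20%, beside 76.8% of all genes). Col4a1 and its partner chain Col4a2 were not called at any time, with log2 fold changes of 0.25 ± 0.19 and 0.28 ± 0.18 at T120 over T0 (adjusted p = 0.231 and 0.148). Col4a1 had 636, 807, 532 and 949 CPM at T0, 868, 1043, 699 and 627 at T15 and 422, 588 and 715 at T30. At later points it had 688, 859, 732 and 703 CPM at T60, 644, 961 and 810.1 at T90 and 785, 934, 944 and 822 at T120. Each later group overlapped with T0, and T30A held the lowest value. Both genes start from 1 shared promoter region on chromosome 8 in opposite directions and their exons overlap, so some reads may be counted for either. Col15a1 and Col18a1, proteoglycan collagens whose ends are released as endostatin-type fragments, were called at no single time point against T0. Both fell at T120 over T60 (-0.59 ± 0.21 and -0.43 ± 0.13, with adjusted p = 0.0193 and 0.00699). The joint test over all time points called Col18a1 (adjusted p = 0.0346) and not Col15a1 (adjusted p = 0.1095). The Col15a1 call was lost without T60C or T120D (adjusted p up to 0.0983) and after subtraction, where Col15a1 was called down at T120 over T0 instead (-0.74; adjusted p = 0.0058). Col7a1, the anchoring fibril collagen of skin, had -1.25 ± 0.33 at T120 over T0 (adjusted p = 0.00164), with 82.4% background at T0. After background subtraction its value turned to 0.45 and was not called (adjusted p = 0.639).

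Collagen VI, a microfibril of the muscle matrix that satellite cells depend on, fell at T120 over T60 in both listed chains. Col6a1 had 408, 450.3, 282 and 409 CPM at T0, 450.4, 435, 364 and 393 at T15 and 268, 354 and 386 at T30. It had 408, 466, 386 and 431 CPM at T60, 362, 469.6 and 349 at T90 and 312, 353, 306 and 309 at T120. Every T120 library lay below every T60 library, whereas T120 and T0 overlapped because T0C was lower than every T120 library. The fall was called at T120 over T60 (-0.40 ± 0.14; adjusted p = 0.0171) and not over T0 (-0.28 ± 0.14; adjusted p = 0.077). Col6a2 fell in both comparisons, with -0.34 ± 0.13 over T0 and -0.49 ± 0.12 over T60 (adjusted p = 0.0169 and 0.00192). The Col6a1 call over T60 was lost without T60B, T60D, T120A or T120D (adjusted p up to 0.0653), and the Col6a2 call over T0 without T0A, T0B or T120A (adjusted p up to 0.0888) and without the 5 libraries of highest background. After background subtraction both chains were called down at T120 over T0 (-0.58 and -0.56; adjusted p = 0.00323 and 0.00702) and neither over T60 (adjusted p = 0.135 and 0.0509). The Col6a1 fall over T0 was also called without T0C and without the 5 libraries of highest background.

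Among the other collagens the largest changes sat in weakly expressed genes. Col8a1, a network collagen of vessels and cornea, had 15.1, 8.69, 19.8 and 6.38 CPM at T0, 12.4, 5.24, 11.1 and 19.3 at T15 and 25.5, 23.4 and 22.8 at T30. It had 17.5, 21.4, 34.2 and 12.7 CPM at T60, 36.01, 37.7 and 42.9 at T90 and 43.2, 50, 47.01 and 31.2 at T120. At T30, T90 and T120 all libraries exceeded all of T0, and T60 overlapped with it. Its log2 fold change was 1.83 ± 0.35 at T120 (adjusted p = 8.5e-05), although background came to 8.15% of the level at T120 and to 172% at T0, so the T0 level that the rise starts from is not resolved. Col26a1, a collagen of reproductive tissue, had 36.7, 20.7, 21.5 and 28.3 CPM at T0, 21.3, 28.4, 18.7 and 33.9 at T15 and 40.96, 43.02 and 34.1 at T30. It had 15.5, 23.6, 26.1 and 10.5 CPM at T60, 9.72, 14.9 and 13.3 at T90 and 7.05, 12.9, 10 and 2.84 at T120. The T30 libraries were the highest on average and the T120 libraries the lowest, with a log2 fold change of -1.73 ± 0.35 (adjusted p = 0.000139) at T120. Col17a1, a hemidesmosome collagen of epithelia, had 24.8, 17.9, 34.1 and 17.4 CPM at T0, 16.97, 9.75, 15.4 and 34.8 at T15 and 61.8, 41.2 and 17.1 at T30. It had 13.3, 11.9, 14.2 and 13.1 CPM at T60, 12.6, 11.5 and 11.5 at T90 and 10.3, 11.5, 9.50 and 7.58 at T120. All libraries from T60 on were below all of T0, T30A was far above the rest, and the log2 fold change was -1.27 ± 0.35 (adjusted p = 0.00237) at T120. In both genes every T120 library was below every T0 library, the background share at T0 was 83.1% and 65.2%, and the call did not hold after background subtraction (adjusted p = 0.344 and 0.266). Col19a1, a minor collagen of muscle and nerve with a background share of only 9.21%, fell as well (-0.99 ± 0.33, adjusted p = 0.00979), also after subtraction. The Col19a1 call was lost without T0B (adjusted p = 0.126), where the gene was at 473 CPM, beside 170 to 203 CPM in the other T0 libraries. Col12a1, a fibril-associated collagen, rose (0.62 ± 0.24, adjusted p = 0.0243), and Col16a1, of the same group, fell (-0.50 ± 0.14, adjusted p = 0.00294). The fibrillar Col11a2 was called at no single time point against T0 (0.43 ± 0.43 at T120), but was in the joint test (adjusted p = 0.0213). The Col12a1 call was lost without T0B, T0D or T120C (adjusted p up to 0.0779), and the Col16a1 call after subtraction.

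Of the 8 laminin chains 1 was called up and 1 down at T120 over T0 (25%, beside 76.8% of all genes), and of the chains of laminin-211, the muscle laminin, Lama2 was called at T60 and T90. Lamc1 had 884, 1038, 580.2 and 919 CPM at T0, 1074, 1014, 708 and 761 at T15 and 625, 799.8 and 962 at T30. It had 937, 1081, 1041 and 1029.6 CPM at T60, 842, 1085 and 1063 at T90 and 745, 816, 879 and 826 at T120. Libraries of every time point overlapped with those of T0, and the log2 fold change at T120 was -0.07 ± 0.17 (adjusted p = 0.721). After subtraction the T120 value was -0.38 and called (adjusted p = 0.0323), with background at 2.86% of the T0 level. Lama2, which is mutated in a congenital muscular dystrophy, had 839.6, 978, 618 and 768 CPM at T0, 1034, 803, 744 and 766 at T15 and 615, 679.8 and 959.7 at T30. It had 1047, 998, 1078 and 998 CPM at T60, 974, 1080.4 and 1209 at T90 and 946, 766, 952 and 892 at T120. All T60 libraries lay above all T0 libraries, with a log2 fold change of 0.36 ± 0.15 (adjusted p = 0.0446), and at T90 it was 0.44 ± 0.16 (adjusted p = 0.0193). At T120 the value was 0.15 ± 0.15 (adjusted p = 0.368). Both calls were lost after background subtraction (0.00 and 0.08) and without the 5 libraries of highest background. The T60 call was also lost with the library letter as a replicate block, with a filter at 20 CPM and in 10 of the runs that left out 1 library (adjusted p up to 0.161), and the T90 call without T0C or T90C (adjusted p up to 0.0992). Lamb2 was called at no single time point against T0. Lamb1 was called down at T90 alone (-0.81 ± 0.30, adjusted p = 0.0195), which was lost without T90A or T90C (adjusted p up to 0.0975) and after subtraction. The joint test over all time points called Lamb2 (adjusted p = 0.0298) and not Lamb1 (adjusted p = 0.0819).

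The laminin chains that passed the test at T120 were Lama5 and Lama3. Lama5, an alpha chain of many basement membranes, had 53.1, 56.7, 50.8 and 46.2 CPM at T0, 53.8, 42.1, 35.2 and 60.5 at T15 and 71.7, 81.04 and 50.9 at T30. It had 73.3, 72.8, 66.97 and 78.7 CPM at T60, 70.3, 96.3 and 59.1 at T90 and 71.9, 96.4, 77.6 and 64.8 at T120. Every library from T60 on exceeded every T0 library, and the log2 fold change at T120 was 0.59 ± 0.18 (adjusted p = 0.00487), called also after background subtraction. Background made up 58.1% of the Lama5 level at T0. Lama3, an alpha chain of epithelial laminin-332, had 135, 190.04, 277 and 137 CPM at T0, 167, 133, 275 and 143 at T15, 231, 149 and 183 at T30 and 309.6, 174, 162 and 198 at T60. It had 224, 144 and 171 CPM at T90 and 185, 73.9, 106 and 85.9 at T120. T120A stayed within the range of T0 while the other T120 libraries were lower than any earlier one, and the log2 fold change of -0.71 ± 0.30 (adjusted p = 0.0371) was lost with DESeq2, with another scaling of libraries (RLE) and without any of 5 single libraries.

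Of 7 integrins 5 were called up and 1 down at T120 over T0, 85.7% in all, beside 76.8% of all genes (37.3% up and 39.5% down). After background subtraction 5 were called up and 0 down, in a fit for which the share of all genes called is not given here. The largest rise was that of Itga5 (chr15:103344286-103366763, minus strand, GRCm38), the alpha chain of the fibronectin receptor. Itga5 had 25.6, 23.1, 30.2 and 18.6 CPM at T0, 19.4, 13.5, 18.9 and 33.4 at T15 and 48.7, 42.4 and 28.3 at T30. It had 78.04, 83.1, 63.9 and 84.5 CPM at T60, 123, 127 and 133 at T90 and 152, 145, 151 and 136 at T120. The libraries of T60, T90 and T120 formed separate levels, each above all libraries of the time points before it. Its log2 fold change over T0 was 1.69 ± 0.21 (adjusted p = 7.72e-07) at T60, 2.41 ± 0.22 (adjusted p = 5.33e-09) at T90 and 2.60 ± 0.21 (adjusted p = 5.65e-10) at T120. At T30 it was 0.71 ± 0.22 and not called (adjusted p = 0.069), while T30 over T15 was called (0.91 ± 0.22; adjusted p = 0.0202). Background made up 1.63% of its T120 level and 51.8% of its T0 level, and after subtraction the T120 value was 3.31.

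Itgav (chr2:83724397-83806916, plus strand), the alpha chain of vitronectin and RGD-binding receptors, rose later. Itgav had 81.5, 88.7, 81.01 and 77.6 CPM at T0, 92.4, 83.8, 73.5 and 77.2 at T15 and 80.4, 87.2 and 93.4 at T30. It had 94.1, 105, 99.1 and 106 CPM at T60, 154, 166 and 215 at T90 and 225, 237, 276 and 240.5 at T120. The T60 libraries lay just above those of T0, and T90 and T120 each lay wholly above the time point before. Over T0, the log2 fold change of Itgav was 0.30 ± 0.10 at T60, 1.12 ± 0.11 at T90 and 1.58 ± 0.11 at T120 (adjusted p = 0.0179, 1.9e-08 and 3.6e-11). The T60 call was lost without T0D or T60B (adjusted p up to 0.0577), without the 5 libraries of highest background and after subtraction. Its background share at T0 was 34.5%. The steps of T90 over T60 and T120 over T90 were called as well (0.82 ± 0.11 and 0.45 ± 0.11; adjusted p = 4.32e-05 and 0.0065).

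The laminin receptor chains had smaller fold changes. Itgb1 (chr8:128685654-128733200, plus strand) had 342, 369, 285 and 317 CPM at T0, 359, 359, 360.4 and 297 at T15 and 246, 271 and 368 at T30. It had 438, 417, 432 and 485 CPM at T60, 591, 471 and 551 at T90 and 614, 529, 639.6 and 638 at T120. Every library from T60 on exceeded every T0 library, although T60 itself lay close to them. At T120 Itgb1 had a log2 fold change of 0.88 ± 0.12 (adjusted p = 1.6e-06). Itga7 (chr10:128933818-128958282, plus strand) had 303, 334, 235 and 326 CPM at T0, 295, 366, 265 and 286 at T15 and 254, 323 and 353 at T30. It had 335, 450.1, 366 and 439 CPM at T60, 394, 571 and 472 at T90 and 353, 576, 509 and 603 at T120. T120A, at 353 CPM, was much lower than the other T120 libraries but still above T0, and the log2 fold change was 0.77 ± 0.17 (adjusted p = 0.000359). Background shares at T0 were low, 3.37% and 7.56%, and both T120 rises were called after subtraction (0.56 and 0.52). The third laminin-binding chain, Itga6, is described with the late libraries.

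Itgb5, a beta chain that pairs with Itgav, rose at T30 and T60 and was not called at T90 or T120. Itgb5 had 29.9, 20.9, 28.2 and 20.5 CPM at T0, 25.2, 22.8, 38.02 and 26.1 at T15 and 42.5, 34.8 and 40.2 at T30. It had 38.4, 31.2, 33.1 and 38.3 CPM at T60, 30.8, 28.8 and 29.4 at T90 and 33.4, 26.1, 29.1 and 28.4 at T120. All T30 and T60 libraries were above all T0 libraries, and those of T90 and T120 overlapped with T0. It was called at T30 (0.66 ± 0.17; adjusted p = 0.0225) and T60 (0.51 ± 0.16; adjusted p = 0.00847), and the T30 call was lost without T0B, T0D or T30A and in a fit of T0, T15 and T30 alone. Without the 5 libraries of highest background it was called up at T120. Its background share at T0 was 36.25%. Itga8, an RGD-binding alpha chain, was the integrin that fell at T120 (-0.59 ± 0.15, adjusted p = 0.00151), a call not held after background subtraction (-0.29; adjusted p = 0.67).

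**Figure D2:**
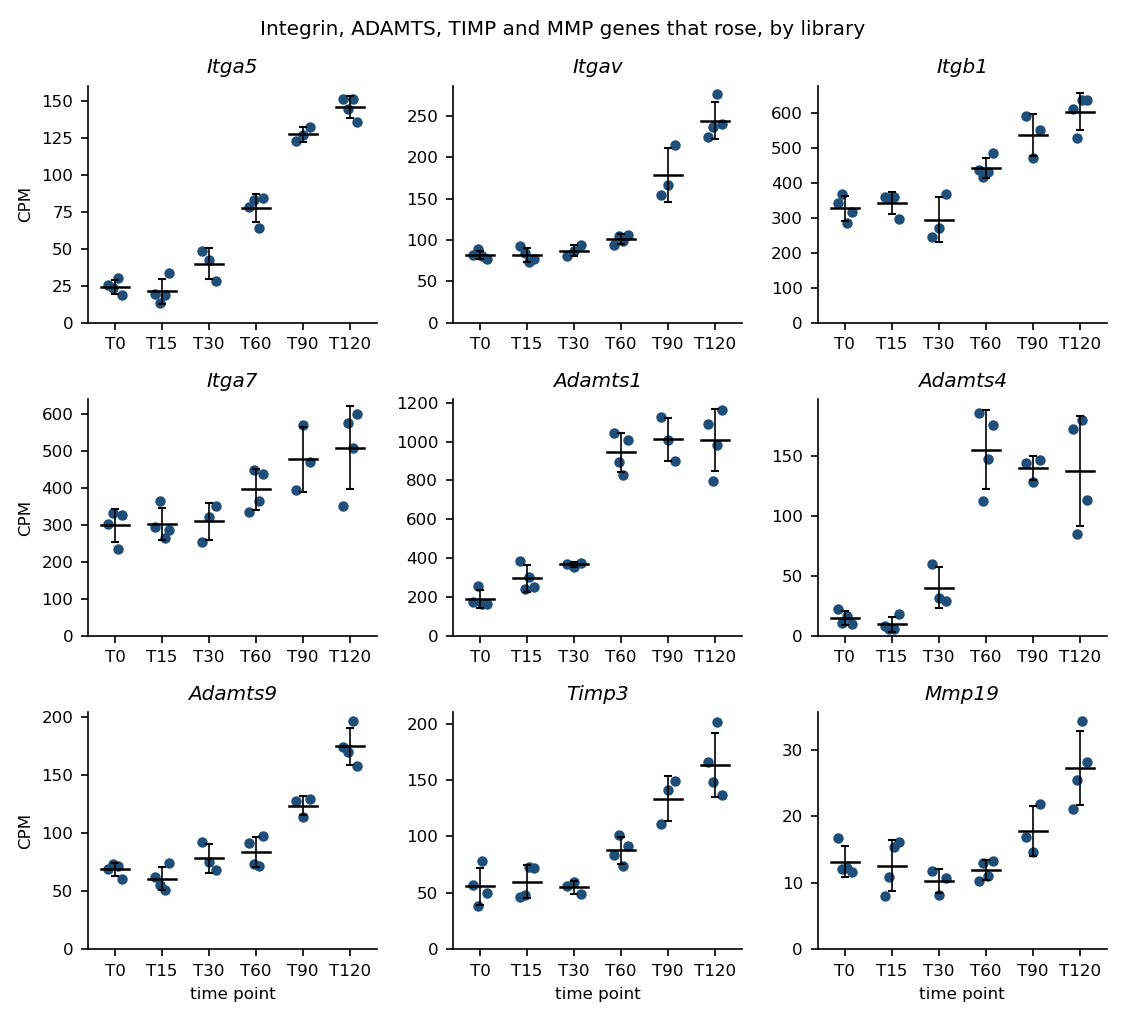
CPM of 9 members called up at T120 over T0, by time point. Points are libraries, horizontal lines the mean and vertical bars the SD, on linear axes that start at 0. Adamts1 and Adamts4 reach their late level at T60, whereas Itga5, Itgav, Itgb1, Adamts9, Timp3 and Mmp19 are highest on average at T120.

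All 10 ADAMTS genes were called at T120 over T0, 3 up and 7 down, beside 76.8% of all genes in either direction. Adamts1 (chr16:85793827-85803113, minus strand), which cuts the proteoglycans versican and aggrecan, had the lowest adjusted p of the 3 members called at T30. Adamts1 had 176, 256, 162 and 166 CPM at T0, 388, 239.7, 305 and 250.1 at T15 and 370.4, 355 and 377 at T30. It had 1043, 895, 829 and 1008 CPM at T60, 1125, 1009 and 902 at T90 and 1092, 798, 984 and 1160.3 at T120. The T30 libraries lay together above all of T0, where T0B stood apart as the highest, and those of T60 lay far above both. Its log2 fold change was 0.64 ± 0.16 at T15 (adjusted p = 0.0971), 0.95 ± 0.17 at T30 (adjusted p = 0.00135), 2.31 ± 0.17 at T60 (adjusted p = 5.15e-10) and 2.41 ± 0.17 at T120 (adjusted p = 8.51e-11). The T30 call was kept in every run that left out 1 library, and was lost when the 5 libraries with most background were left out, T30 then having 1 library. At T120 over T60 it was not called (0.10 ± 0.16; adjusted p = 0.622).

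Adamts4 (chr1:171250421-171260637, plus strand), an aggrecanase, showed the largest rise of all members. Adamts4 had 22.6, 10.95, 16.8 and 9.62 CPM at T0, 8.22, 5.96, 5.78 and 18.5 at T15 and 60, 31.4 and 28.9 at T30. It had 186, 113, 148 and 175 CPM at T60, 144, 128 and 147 at T90 and 172, 84.8, 179.9 and 113 at T120. All T30 libraries exceeded all T0 libraries, and all later ones exceeded T30, with T120 the most scattered. On the log2 scale Adamts4 rose by 1.44 ± 0.37 (adjusted p = 0.0245) at T30, 3.41 ± 0.36 (adjusted p = 8.82e-08) at T60 and 3.24 ± 0.35 (adjusted p = 4.88e-08) at T120. Background made up 85.1% of the T0 level, 55.3% at T30 and 0.656% at T60, so the T0 level is poorly resolved. The T30 call was lost without T0B, T0D or T30A and in a fit of T0, T15 and T30 alone. Adamts9, which cuts versican too, rose later, with 0.85 ± 0.14 at T90 and 1.35 ± 0.13 at T120 (adjusted p = 1.24e-05 and 6.71e-09), and a level of 175 ± 16.1 CPM at T120 and 68.8 ± 5.88 CPM at T0 (SD, n = 4 each). Background made up 57.1% of its T0 level, and after subtraction the T90 call was lost and the T120 call over T0 kept.

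Of the 10 ADAMTS genes 2 were called down at T60 over T0, beside 28.3% of all genes. At T120 over T60, 6 were called down, beside 32% of all genes. Adamts10, which binds fibrillin microfibrils, had 230.3, 343, 313 and 352 CPM at T0, 346, 395, 326 and 249 at T15 and 281, 257 and 279.8 at T30. It had 333, 269, 229 and 219 CPM at T60, 228, 214 and 188 at T90 and 181, 110.1, 129.7 and 95.8 at T120. T60 overlapped with T0, while all T120 libraries were below all earlier libraries. Its log2 fold change over T0 was -0.24 ± 0.18 at T60 (adjusted p = 0.274) and -1.26 ± 0.19 at T120 (adjusted p = 2.88e-06). Adamts20, which takes part in pigment cell migration in mouse, had 44.6, 54.4, 45.8 and 24.6 CPM at T120, against 174, 189.5, 155 and 219 CPM at T0 (-2.13 ± 0.21, adjusted p = 1e-08). Every T120 library of Adamts20 was below every library of all earlier time points. Adamts5, the main aggrecanase of mouse cartilage, had 126 ± 34.4 CPM at T120 and 293 ± 18.2 CPM at T60 (SD, n = 4 each), and fell late (-1.22 ± 0.23, adjusted p = 0.000107). Background shares of these 3 genes at T0 were 7.41%, 13.5% and 15.01%, and their T120 falls over T0 were called after subtraction as well. The Adamts5 fall over T0 (-0.71 ± 0.22, adjusted p = 0.00683) was lost without T0B (adjusted p = 0.0578).

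Adamts15, another versican-cutting member, showed the largest fall of all members at T120 over T0. Adamts15 had 34.1, 78.4, 47.8 and 40.5 CPM at T0, 97.3, 37.6, 57.7 and 39.2 at T15 and 67.7, 56.4 and 63.7 at T30. It had 67.8, 33.99, 50.1 and 32.6 CPM at T60, 18.7, 19.5 and 14.1 at T90 and 11.5, 10.05, 5.72 and 7.40 at T120. T0 to T60 overlapped, T90 lay below them and T120 below T90. Background made up 62.5% of the T0 level of this gene. Adamts15 had a log2 fold change of -2.56 ± 0.33 (adjusted p = 5.36e-07) at T120 over T0 and -2.44 ± 0.33 (adjusted p = 2.84e-06) over T60. After background subtraction these were -2.67 and -3.31 and not called (adjusted p = 0.089 and 0.0639), in a fit in which the common coefficient of variation between libraries was 0.38 in place of 0.192. Adamts12 (-0.91 ± 0.16), which cuts cartilage oligomeric matrix protein, Adamts8 (-1.37 ± 0.30) and the procollagen-trimming Adamts14 (-1.78 ± 0.30) also fell at T120, with background shares at T0 of 50.9%, 50.9% and 46.8%, and none of these 3 was called after subtraction.

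**Figure D3:**
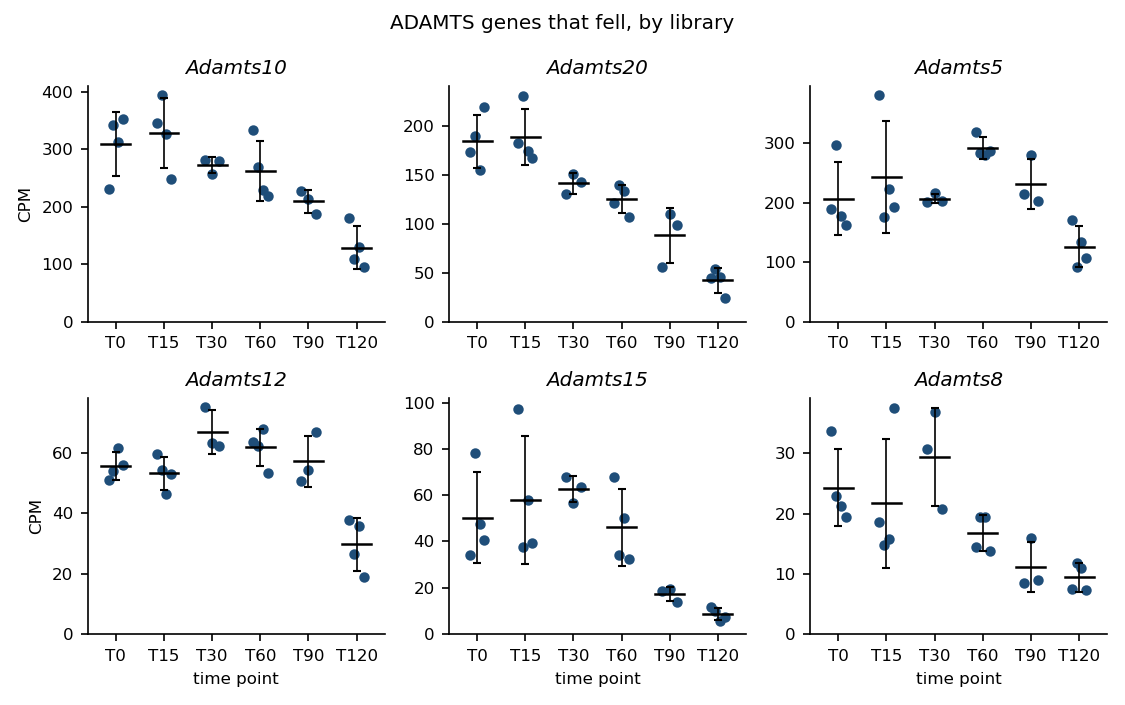
CPM of 6 ADAMTS genes called down at T120 over T0, by time point. Points are libraries, horizontal lines the mean and vertical bars the SD, on linear axes that start at 0. The means of Adamts5 and Adamts12 are lower at T120 than at any other time point, and Adamts15 has dropped by T90.

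The ADAM genes with general sheddase roles were not called against T0 before background was subtracted. Adam10, which cleaves Notch and cadherins, had 89.2, 91.3, 73.5 and 93.3 CPM at T0, 106, 106, 90.5 and 90.5 at T15 and 74.6, 82.6 and 97.5 at T30. It had 95.9, 95.96, 94.2 and 88.4 CPM at T60, 94.1, 96.5 and 90.03 at T90 and 76.99, 85.4, 85.4 and 70.6 at T120. All time points overlapped with T0, and the log2 fold change was -0.13 ± 0.10 (adjusted p = 0.232) at T120 over T0 and -0.23 ± 0.10 (adjusted p = 0.0411) over T60. The call over T60 was lost in 11 of the runs that left out 1 library (adjusted p up to 0.224), with RLE scaling, with a filter at 20 CPM, with DESeq2, in a fit of the late libraries alone, without the 5 libraries of highest background and after subtraction. After subtraction Adam10 was called down at T120 over T0 (-0.29; adjusted p = 0.0209). Adam17, which releases TNF and EGF receptor ligands, had 73.2, 70.8, 56.4 and 69.5 CPM at T0, 68.6, 71.3, 66.8 and 67.1 at T15 and 63.1, 71.6 and 72.5 at T30. It had 58.2, 76, 61.2 and 60.1 CPM at T60, 53.1, 61.6 and 68.1 at T90 and 53.7, 74.3, 67.3 and 56.1 at T120. All groups overlapped with T0, T60B stood above the other T60 libraries, and no comparison was called, with -0.11 ± 0.12 (adjusted p = 0.413) at T120 over T0. Background made up 28.8% of the Adam17 level at T0.

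Adam9, another sheddase, was the ADAM gene that rose. Adam9 had 70.9, 73.2, 60.9 and 64.4 CPM at T0, 75.4, 65.01, 72.8 and 62.7 at T15 and 52.5, 55.8 and 65.7 at T30. It had 97.7, 121, 92.3 and 118 CPM at T60, 116, 132 and 147 at T90 and 97.6, 95.7, 109.97 and 104 at T120. All libraries from T60 on were above all earlier libraries, and T90 was highest on average. Adam9 rose by 0.67 ± 0.11 (adjusted p = 2.57e-05) at T60, 0.97 ± 0.12 (adjusted p = 2.54e-07) at T90 and 0.60 ± 0.11 (adjusted p = 3.94e-05) at T120, called after subtraction at each of these points. Adam22, a member without protease activity known from synapses, had 34.8, 19.3, 34.1 and 23.5 CPM at T0, 20.5, 13.8, 18.2 and 39.2 at T15 and 46.9, 51.03 and 18.8 at T30. It had 7.11, 9.38, 8.64 and 11.1 CPM at T60, 8.24, 8.33 and 11.3 at T90 and 6.51, 14.7, 6.34 and 6.33 at T120. T120B stood above the other T120 libraries, though every library from T60 on was below all of T0, and the log2 fold change was -1.74 ± 0.36 (adjusted p = 0.00016) at T120. Adam19, also called meltrin beta, had 35, 26.4, 21.2 and 20.1 CPM at T0, 16.6, 18.96, 12.1 and 38.3 at T15 and 48.5, 41.2 and 24.5 at T30. It had 15.9, 22.4, 12.8 and 13.5 CPM at T60, 10.7, 14.6 and 14.1 at T90 and 14.2, 17.4, 17.1 and 13.2 at T120. T60 overlapped with T0, the libraries of T90 and T120 were below all of T0, and the log2 fold change was -0.73 ± 0.29 (adjusted p = 0.0279) at T120, a call lost without T0A, T0B, T120A or T120D (adjusted p up to 0.118). Background came to 130% and 75.9% of their T0 levels. After subtraction Adam19 had 0.16 (adjusted p = 0.887) and Adam22 took the opposite sign. Adam15 and Adam12, the 2 remaining ADAM genes, were not called against T0 at T120 (-0.07 ± 0.28 and -0.71 ± 0.62).

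The matrix metalloproteinases of the table were few, and 1 of 3 was called at T120 over T0, beside 76.8% of all genes. Mmp2, gelatinase A, had 269, 293, 179.6 and 186 CPM at T0, 222, 206, 199 and 243 at T15 and 141, 134 and 191 at T30. It had 189, 182, 199 and 307 CPM at T60, 196, 191 and 201 at T90 and 143, 137, 196 and 237 at T120. Its libraries scattered widely, with T60D well above the other T60 libraries, and T120 was not called (-0.38 ± 0.20, adjusted p = 0.0836). After background subtraction Mmp2 was called down at T90 and T120 over T0 (-0.63 and -0.71; adjusted p = 0.0359 and 0.0101), and the T120 fall was also called without T0C, T0D or T120D. Mmp14, the membrane protease that activates Mmp2, had 50.8, 46.6, 50.3 and 41.3 CPM at T0, 52.1, 43.9, 49.9 and 49.7 at T15 and 62.9, 50.6 and 60.7 at T30. It had 50.8, 49.7, 55.1 and 53.5 CPM at T60, 49.4, 60.1 and 60.03 at T90 and 39.6, 51.5, 57.1 and 52.9 at T120. All groups overlapped with T0, and the log2 fold change at T120 was 0.10 ± 0.11 (adjusted p = 0.454), called without T120A alone among the alternatives. Background made up 32.5% of the Mmp14 level at T0.

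Mmp19, a secreted metalloproteinase, rose late from a low level. Mmp19 had 16.7, 12, 12.3 and 11.7 CPM at T0, 7.95, 10.8, 15.3 and 16.2 at T15 and 11.7, 8.20 and 10.7 at T30. It had 10.2, 12.99, 11.02 and 13.3 CPM at T60, 16.9, 14.6 and 21.9 at T90 and 21.04, 25.5, 34.3 and 28.2 at T120. All T120 libraries were above all T0 and T60 libraries, and T0A was the highest of T0. The log2 fold change was 1.203 ± 0.21 (adjusted p = 5.39e-05) at T120 over T60 and 1.06 ± 0.21 (adjusted p = 0.000147) over T0, with a background share of 70.1% at T0 and an exon overlap with Tmem198b on the other strand.

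Of the inhibitors, Timp2 and Timp3 were listed and went in opposite directions at T120 over T60. Timp3, which binds to the matrix and blocks ADAM and ADAMTS enzymes as well as MMPs, had 56.8, 38.1, 77.9 and 49.5 CPM at T0, 45.8, 48.1, 73.3 and 71.5 at T15 and 56.2, 59.8 and 48.6 at T30. It had 83.5, 102, 73.97 and 91.6 CPM at T60, 111, 141 and 149 at T90 and 166, 148, 202 and 136 at T120. T60 overlapped with T0 through T0C, and all T90 and T120 libraries were above all of T0. Its log2 fold change over T0 was 0.67 ± 0.19 (adjusted p = 0.00551) at T60, 1.28 ± 0.20 (adjusted p = 1.22e-05) at T90 and 1.57 ± 0.19 (adjusted p = 2.92e-07) at T120, and over T60 0.90 ± 0.19 (adjusted p = 0.000352) at T120. Background made up 37.15% of its T0 level, and the T60 call and the T120 over T60 call were lost after subtraction. Timp3 kept its calls over T0 at T90 and T120. Its exons overlap those of Syn3, in whose intron the gene lies. Timp2, which also takes part in Mmp2 activation, had 182, 202, 159 and 204 CPM at T0, 239, 207, 198 and 196 at T15 and 125, 150.5 and 184 at T30. It had 201, 219, 212 and 216 CPM at T60, 158, 182 and 145 at T90 and 145, 152, 172 and 162 at T120. T120 and T0 overlapped (-0.25 ± 0.11, adjusted p = 0.0547), while all T120 libraries were below all T60 libraries (-0.43 ± 0.11, adjusted p = 0.00273). After subtraction Timp2 was called down over T0 at T90 and T120 (-0.58 and -0.54; adjusted p = 0.000556 and 0.000334), and its T120 fall over T0 was also called without T0C, T15D, T30A, T30C, T90B, T90C or T120C and without the 5 libraries of highest background.

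At T120 over T60, both with less background than T0, the largest of the 12 rises were those of Lama4, Itga6 and Col1a2, genes whose level at T0 was at or near the estimated background. Lama4, the laminin alpha chain of vessel basement membranes, had 29.7, 10.4, 32.1 and 18.2 CPM at T0, 10.2, 5.87, 11.2 and 30.2 at T15 and 51.1, 39.4 and 11.9 at T30. It had 4.36, 3.29, 3.13 and 5.75 CPM at T60, 9.02, 6.15 and 3.82 at T90 and 35.2, 31.5, 32.8 and 14.4 at T120. All T120 libraries were above all T60 and T90 libraries, T120D was the lowest of T120, and T0 overlapped with T120. The log2 fold change was 2.77 ± 0.50 (adjusted p = 8.28e-05) at T120 over T60 and 0.35 ± 0.47 (adjusted p = 0.505) over T0. Itga6, a laminin-binding chain of endothelial, epithelial and stem cells, had 45.9, 35.05, 45.9 and 22.02 CPM at T120, against 8.05, 8.74, 6.33 and 12.2 CPM at T60, and rose by 2.07 ± 0.39 (adjusted p = 0.000128). Against T0 it was called down at T60 (-1.21 ± 0.39; adjusted p = 0.0129) and up at T120 (0.86 ± 0.38; adjusted p = 0.0461), and the T120 call over T0 was lost in 11 of the runs that left out 1 library and with the library letter as a replicate block. The T60 call was lost without T0C (adjusted p = 0.0574). Background came to 19.5% and 12.01% of the T120 levels of these 2 genes, and to 142% and 112% at T0.

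Markers of vessel cells rose in the same libraries. All 6 listed endothelial markers were called up at T120 over T60, where 28.4% of all genes were called up and 32% down. Their summed level was 378 to 704 CPM at T120, against 130 to 208 CPM at T60. At T0 the sum was 161 to 252 CPM. Cdh5, the endothelial cadherin, had 136, 82.5, 147 and 40.5 CPM at T120, against 10.6, 17, 5.81 and 26.5 CPM at T60 (2.76 ± 0.50, adjusted p = 9.27e-05). Of the 8 smooth muscle or pericyte markers 3 rose and 2 fell at T120 over T60, and the list's summed level was 1021 to 1336 CPM at T120, against 1415 to 1499 at T60. Those that rose were Rgs5 (4.11 ± 0.37), Myh11 (3.02 ± 0.56) and Pdgfrb (1.36 ± 0.43). The largest single part of the list's sum was Notch3, with 488 to 704 CPM at T120 and 895 to 1121 CPM at T60, so the sum does not follow the markers that rose. T120D was the lowest T120 library for Lama4, Itga6, Col1a1, Col1a2, Cdh5, Flt1, Rgs5, Myh11 and Pdgfrb, and it had the lowest endothelial sum. Of the 6 endothelial markers it was lowest for Pecam1, Cdh5, Kdr and Flt1, whereas Fabp4 was lowest in T120B (55.9 CPM, beside 56.3 CPM in T120D) and Tek was highest in T120D (155 CPM, beside 120.03 to 141 CPM in the other T120 libraries). The part of vessel cells in the rises of Lama4, Itga6, Col1a1 and Col1a2 was not tested. At T90 over T60 all 6 endothelial markers had positive log2 fold changes, of 0.17 ± 0.18 (Tek), 0.55 ± 0.52 (Cdh5), 0.71 ± 0.45 (Pecam1), 0.74 ± 0.58 (Kdr), 0.80 ± 0.43 (Fabp4) and 1.08 ± 0.48 (Flt1), with adjusted p of 0.0965 to 0.488. Their part in the rises of that step was not tested. The 7 members that rose in it were Itgav (0.82 ± 0.11), Itga5 (0.72 ± 0.20), Timp3 (0.61 ± 0.20), Mmp19 (0.59 ± 0.22), Adamts9 (0.56 ± 0.13), Col5a2 (0.51 ± 0.17) and Adam9 (0.30 ± 0.11). The calls of Mmp19 and Adam9 there were close to the threshold (adjusted p = 0.0498 and 0.0494).

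**Figure D4:**
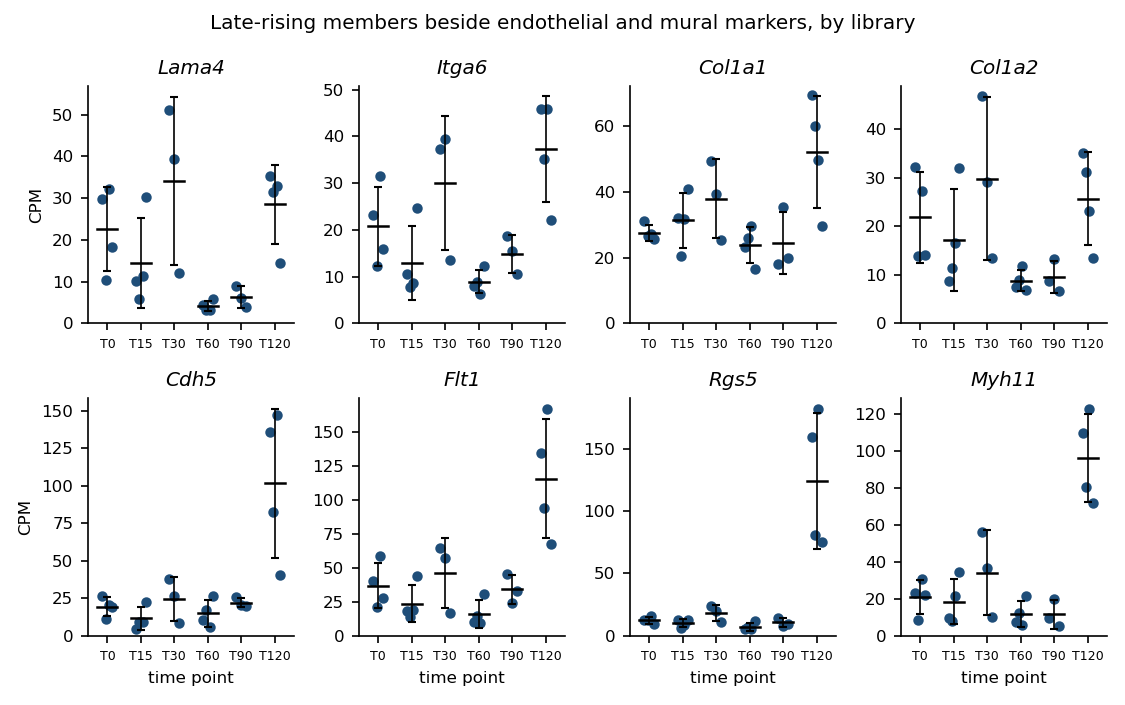
CPM of Lama4, Itga6, Col1a1 and Col1a2 (top) and of the endothelial markers Cdh5 and Flt1 and the mural cell markers Rgs5 and Myh11 (bottom), by time point. Points are libraries, horizontal lines the mean and vertical bars the SD, on linear axes that start at 0. All 8 genes are higher at T120 than at T60 in every library.

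The calls were also counted by the background share of each member at T0. Among the 24 members with a share under 20%, 7 were called up and 1 down at T60 over T0, and 6 up and 6 down at T120. Among the 25 members with a share of at least 50%, 4 were up and 7 down at T60, and 9 up and 8 down at T120. Of all genes, 27.9% were up and 28.3% down at T60 over T0, and 37.3% up and 39.5% down at T120. When background density times exon length was subtracted from every gene, 6 of the 14 rises and 1 of the 9 falls at T60 were called in the same direction. The 6 rises were those of Adamts1, Adamts4, Itga5, Itgb5, Adam9 and Col8a1, and the fall that of Adamts20. Before subtraction the T60 call of Col8a1 (adjusted p = 0.0495) was lost in 16 of the runs that left out 1 library (adjusted p up to 0.216), and that of Adamts20 (adjusted p = 0.0221) without T0D, T60A or T60D (adjusted p up to 0.0766). Of the T60 falls, 5 took the opposite sign and were called (Lama4, Itga6, Col1a2, Col27a1 and Adam22), against T0 levels that consist of background alone by this estimate. Over all members, the fit after subtraction called 13 up and 2 down at T60 and 22 up and 14 down at T120. The shares of all genes called in that fit are not given here, so these counts cannot be read as particular to the members. At T120 over T0, 16 of the 17 rises and 6 of the 17 falls were called in the same direction. The falls were those of Adamts5, Adamts10, Adamts20, Col6a2, Col19a1 and Lama3, and the rise not called was that of Col5a1. The other 8 falls called after subtraction were those of Col3a1, Col5a3, Col6a1, Col15a1, Lamc1, Adam10, Mmp2 and Timp2, each with a background share under 20% at T0. The subtracted fit scaled libraries anew, and the part of that scaling in these falls was not tested. The other 6 rises, those of Lama4, Col1a2, Col11a2, Col27a1, Adam12 and Adam22, had T0 levels of background alone by this estimate. The median of all genes at T120 over T0 was 0.07 after subtraction and -0.08 without it. At T120 over T60, 5 of 12 rises (Itgav, Itga5, Itgb1, Col5a2 and Lama4) and 5 of 16 falls (Adamts5, Adamts10, Adamts20, Timp2 and Col18a1) were. The rises over T60 not called after subtraction were those of Adamts9, Mmp19, Timp3, Col1a1, Col1a2, Col8a1 and Itga6. Background density averaged 0.207 CPM per kb at T60 and 0.482 at T120. In the subtracted fit the common coefficient of variation was 0.38, in place of 0.192. The parts of this wider spread and of background in the lost calls, of rises and of falls, were not tested.

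**Figure D5:**
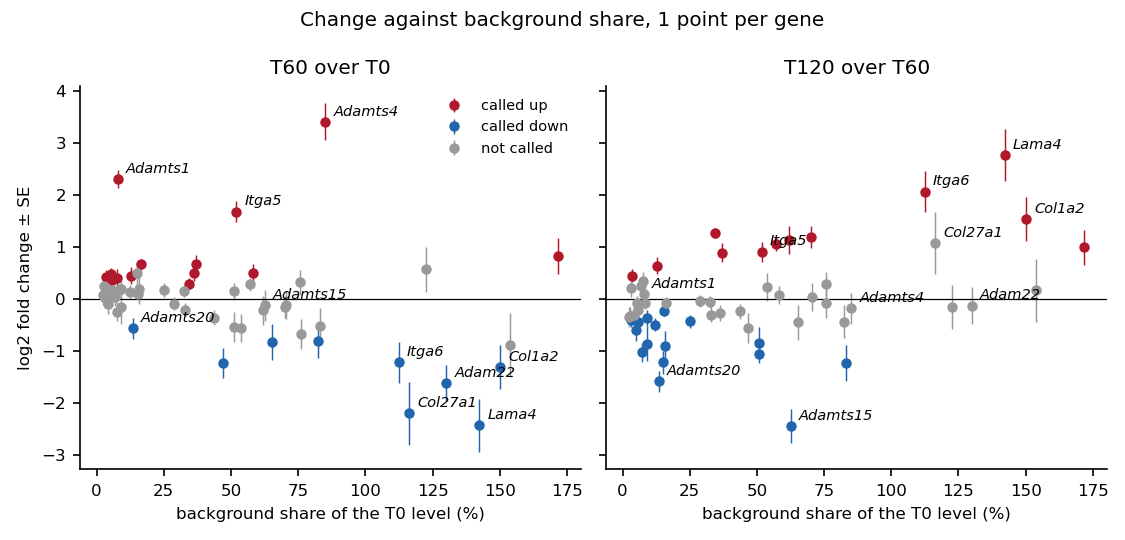
Log2 fold change with its standard error against the background share of the T0 level in percent, for T60 over T0 (left) and T120 over T60 (right), with 1 point for each member shown. Red and blue points were called up and down, and grey points were not called. At T60 the genes with a share above 100% lie mostly below 0, and at T120 over T60 Lama4, Itga6 and Col1a2 lie above it.

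In the authors' deposited table of fold changes 18 members were up and 18 down at T120 over T0, and all 17 rises and 17 falls called here were among them. At T60 the authors' deposited table had 15 up and 10 down, which include the 14 and 9 called here. At T90 the authors' deposited table had 18 up and 13 down, among them all 15 rises and 13 of the 14 falls called here. At T120 over T60 the authors' deposited table had 13 up and 15 down, among them all 12 rises and 15 of the 16 falls. At T15 the authors' deposited table called Adamts1 alone (log2 fold change 0.65), and at T30 it had 5 up, adding Itga5 and Col12a1 to the 3 called here.

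Other genes of the matrix and adhesion pathways were counted from fixed lists, each count to be read beside the 37.3% of all genes called up and the 39.5% called down at T120 over T0. Of 38 listed genes of the integrin adhesion complex, the proteins that tie integrins to actin, 21 were up and 7 down at T120 over T0, 73.7% in all, beside 76.8% of all genes. Their median log2 fold change was 0.32, beside -0.08 for all genes. Flnc, the muscle filamin that crosslinks actin, rose by 3.10 ± 0.15 (adjusted p = 5.64e-13) and Pdlim7, an actin-linked adaptor, by 2.54 ± 0.19 (adjusted p = 1.48e-10). Sharpin, which holds integrins inactive, had -1.37 ± 0.15 (adjusted p = 3.78e-08) and the tensin gene Tns2 -1.20 ± 0.16 (adjusted p = 4.85e-07). Of 31 basement membrane and matrix glycoprotein genes, 7 were up and 12 down (61.3% called, beside 76.8%). Sdc4, a syndecan that acts with integrins and marks satellite cells, rose by 2.59 ± 0.19 (adjusted p = 9.87e-11), and the small proteoglycan gene Dcn by 1.64 ± 0.51 (adjusted p = 0.00629). Sgcb and Sgca, sarcoglycans of the dystrophin complex, fell, with -1.40 ± 0.16 and -1.33 ± 0.19 (adjusted p = 1.13e-07 and 1.88e-06). Dcn is also a fibroblast marker, and of the other 3 listed fibroblast markers Cd34 fell (-0.69 ± 0.13) and Dpt and Gsn were not called.

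Of 22 genes of collagen synthesis and crosslinking, 8 were up and 6 down at T120 over T0 (63.6% called, beside 76.8% of all genes). Lox, the crosslinking lysyl oxidase, rose by 2.81 ± 0.26 (adjusted p = 4.95e-09) and P4ha1, a prolyl hydroxylase subunit, by 0.99 ± 0.12 (adjusted p = 3.29e-07), while P3h4 and P3h1, which act in prolyl 3-hydroxylation, had -1.19 ± 0.16 and -0.78 ± 0.18 (adjusted p = 7.9e-07 and 0.000534). Of 8 matricellular genes 4 were up and 1 down (62.5%). Thbs1 and Thbs2, thrombospondins that bind cells and growth factors, rose by 4.56 ± 0.34 and 2.75 ± 0.23 (adjusted p = 1.7e-10 and 7.17e-10), and the tenascin gene Tnxb had -0.74 ± 0.17 (adjusted p = 0.000409). Of 21 genes of the plasminogen system and pericellular protease control, 12 were up and 5 down, 81% called beside 76.8% of all genes. Plaur, the urokinase receptor, rose by 3.97 ± 0.42 (adjusted p = 2.6e-08). Tfpi, an inhibitor of coagulation, and the secreted protease gene Htra1 fell (-1.07 ± 0.19 and -0.83 ± 0.31; adjusted p = 4.34e-05 and 0.0182). Of 14 ligands and receptors that ADAM proteases shed, 6 were up and 4 down (71.4%). Cd44, the hyaluronan receptor, rose by 3.53 ± 0.19 (adjusted p = 1.54e-12) and the EGF receptor ligand Hbegf by 3.204 ± 0.35 (adjusted p = 5.51e-08), and the Notch ligand Dll1 and M-cadherin (Cdh15) had -1.33 ± 0.23 and -1.12 ± 0.15 (adjusted p = 2.48e-05 and 1.02e-06).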

How the data were processed

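Muscle stem cell RNA from 22 bulk libraries was read from the deposited table of 8059 genes. RNA was taken with a kit for fixed tissue and made into directional libraries, per the labels' protocols. Raw counts per gene were deposited by the authors. Their tools, per the submitters' processing notes, were cutadapt 1.11, featureCounts 1.4.5-p3 and DESeq2 1.18.1 with build mm10. Aligner, annotation and strand setting are not stated. The deposited log2 fold changes and adjusted p-values are the authors' own, and the deposited mean normalized count (a signal averaged over libraries, lowest 98.4) was read for its range only. Another 22 per-library columns were not used. The 6 bulk labels name groups, and libraries were assigned by the time number and letter of their column.

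Counts were tested with edgeR 4.0.16 (R 4.3.3; TMM scaling, 22 libraries in 1 quasi-likelihood fit, Benjamini-Hochberg adjustment), which was checked on simulated data. The low-count filter kept all 8059 genes. The common coefficient of variation was 0.192. CPM used these scaled totals. Exon lengths came from GENCODE vM21, matched for 8049 genes. Background in a gene was the density over 5 long genes times its exon length. Alternatives were DESeq2 1.42.0, RLE scaling, filters, background subtraction, library subsets, leaving out each library and a block for the library letter. The letters were not taken to pair libraries, since the labels state no pairing. Deviations of same-letter libraries correlated at a median of 0.116 (-0.575 to 0.467), and those of libraries with other letters at -0.0209 (-0.742 to 0.709).

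Members and lists were chosen with earlier results of these data known. All library values are given for members called at T15 or T30, the 3 called members per family with the largest change at T120 over T0, the 2 highest per length at T0, and 13 niche genes of a fixed list, where present. Of other lists, the 2 largest called rises and falls are named. A few genes that these rules or the figures would name are not reported here.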

Additional observations from a re-analysis of the deposited data

Results flagged for a closer look

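In 7 of 120 checks a single library of a member lay far from the other libraries of its group, and chance alone marks about 1 group in 20. Adamts1 had 256.0 CPM in T0B and 162.0 to 176.0 CPM in the other T0 libraries. Mmp19, at a low level, had 16.7 CPM in T0A and 11.7 to 12.3 CPM in the rest of T0. Itgb1 had 297.0 CPM in T15D, below the 359.0 to 360.0 CPM of the other T15 libraries. At T60, Adam17 had 76.0 CPM in T60B beside 58.2 to 61.2 CPM, and Mmp2 had 307.0 CPM in T60D beside 182.0 to 199.0 CPM. At T120, T120B held 14.7 CPM of Adam22 beside 6.33 to 6.51 CPM, and 353.0 CPM of Col6a1 beside 306.0 to 312 CPM. T120B had the highest background density of the late libraries, 1.196 CPM per kb, and T15D was among the 5 libraries of highest background. Their part in these values was not tested.

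Before background subtraction, Itga6 moved in opposite directions against T0 at 2 time points. Its log2 fold change over T0 was -1.21 at T60 and 0.863 at T120, both called, and the difference between them was itself called in the comparison of T120 with T60 (2.07 ± 0.39, adjusted p = 0.000128 by edgeR). Both values share the T0 libraries, in which 112% of the level was estimated background. After subtraction the T60 value took the opposite sign and was called. The T120 call over T0 was lost in 11 of the runs that left out 1 library and with the replicate block.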

How the results depend on the processing

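With DESeq2 1 member rose at T15. After background subtraction 7 rose at T30, 2 fell at T60, 4 fell at T90, and 5 rose and 5 fell at T120 over T60. Shares of all genes called in the subtracted fit are not given here. That fit moved the median of all genes to -0.15 at T30 over T0, where it was -0.01 without subtraction, and turned Adam22 at T120 over T0 to 7.52 (adjusted p = 0.01), with background at 130% of its T0 level, so its size depends on the prior count. Chosen after seeing the data, a fit of T0, T15 and T30 alone left 1 rise at T30, and one of T60, T90 and T120 alone kept the T120 over T60 counts within 1.5 times. Without the 5 libraries of highest background, 5 members fell at T60. Leaving out each library gave 0 to 1 rises at T15 (1 without T0B), 1 to 6 at T30 (1 without T0B, T0D or T30A, 6 without T30C), 0 to 1 falls at T30 (1 without T30C), 9 to 14 at T90 (9 without T90C) and 10 to 16 at T120 over T60 (10 without T120D), and between 38 and 45 members were called over all time points jointly. The replicate block (library letter) moved no count past 1.5 times, and of the 30 members with all values shown, 30 kept direction and call at T120 over T0. With the block, 14 members rose and 10 fell at T60, and 16 rose and 17 fell at T120. With RLE scaling and DESeq2, 29 of 30 did, the exception being Lama3. After background subtraction 18 of the 30 did, 5 were no longer called, 6 were newly called in the same direction and Adam22 was called in the opposite one. Without the 5 libraries of highest background 24 did, 2 were no longer called and 4 were newly called. The early libraries resolve least, with the lower totals, and 25 of 58 members were at least 50% background at T0.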

Other observations

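Col4a3bp, matched by its name, encodes a carrier of ceramide from the endoplasmic reticulum to the Golgi and is no matrix gene. It had 69.6, 78.2, 73.2 and 83.4 CPM at T0, 105, 94.3, 87.1 and 66.7 at T15 and 73.5, 82.6 and 80.02 at T30. It had 121, 107, 95.2 and 105 CPM at T60, 128, 119 and 139 at T90 and 154, 126, 127 and 127 at T120. All libraries from T60 on were above all of T0, with a log2 fold change of 0.49 ± 0.12 (adjusted p = 0.00117) at T60 and 0.81 ± 0.12 (adjusted p = 2.29e-06) at T120 by edgeR.

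Markers of satellite cells moved in both directions while their summed level was higher late: at T120 over T0, 4 of the 10 rose and 4 fell. Of all genes, 37.3% rose and 39.5% fell. Pax7, the transcription factor that defines the cells, had -1.83 ± 0.16 (adjusted p = 2.54e-09) and Myod1, the factor of activation and myogenic commitment, 3.52 ± 0.21 (adjusted p = 8.32e-12) by edgeR. Myofibre markers summed to 291 to 390 CPM at T60 and 248 to 530 CPM at T120, against 587 to 796 CPM at T0. Of the 8 listed, 0 rose and 6 fell at T60 over T0, beside 27.9% and 28.3% of all genes. At T120 over T0, 2 rose and 5 fell, beside 37.3% and 39.5%. The long gene Ttn alone had 250 to 415 CPM at T0, and the part of background in these sums was not tested.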
